A study of Mus musculus with 2 samples.

Results

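The matrix metalloproteinase genes are described here in cultured mouse fibroblasts labelled wild type or knockout for Sptbn1, the gene of beta-2 spectrin. The 10 genes were taken by name from a table of 25430 distinct gene names: Mmp2, Mmp3, Mmp9, Mmp10, Mmp11, Mmp12, Mmp13, Mmp14, Mmp19 and Mmp23, written there in capitals (MMP2, MMP3, MMP9, MMP10, MMP11, MMP12, MMP13, MMP14, MMP19 and MMP23). Each name occurred once, and all 10 had a mean of 1 FPKM or more over both libraries, the level above which a gene is called measured here. FPKM count the fragments of a gene per kilobase of its transcript, relative to the mapped fragments of the library, so levels can be set side by side between genes. The cells were primary fibroblasts from mouse embryos at stage E13.5, from crosses of Sptbn1 heterozygotes, grown in medium with fetal bovine serum and given no further treatment in the labels. The wild type and the Sptbn1 knockout had 1 library each, and the series' title gives the knockout as homozygous. How many embryos went into each library is not stated in the labels. With no replicates, the values compare 2 libraries, no spread between cultures can be set against them, and no p-value was computed.

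Matrix metalloproteinases are zinc-dependent proteases that cut collagens, proteoglycans and other proteins of the extracellular matrix, and that also release growth factors and cytokines held there. Most are secreted as inactive proenzymes and are activated outside the cell by other proteases, among them plasmin and other metalloproteinases. A smaller group carries a furin site and is activated inside the cell, and several of these stay anchored to the cell surface. Fibroblasts make many of them, and in these cells the collagenase and stromelysin genes are classic targets of inflammatory cytokines acting through the AP-1 transcription factor. Tissue inhibitors of metalloproteinases (TIMPs) block the active enzymes.

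Sptbn1 stood at 69.6 FPKM in wild-type and 36.6 FPKM in knockout cells, 52.5% of the wild-type value, so the library labelled knockout still held fragments of the gene. The total number of fragments per library was not analysed here, so no counting interval is given. The FPKM of 1 fragment, estimated from rows of low level, was 1.61 times higher in knockout than in wild-type cells, which makes the knockout library the shallower. Of 11070 measured genes the median log2 ratio of knockout over wild type, computed after adding 1 FPKM to both values, was -0.05, and the middle 95% lay between -0.45 and 0.40. All 11 listed fibroblast markers were measured, from Fap at 2.77 FPKM in wild-type and 2.99 FPKM in knockout cells, named after its values were seen, to Col1a1 at 957 FPKM in wild-type and 939 FPKM in knockout cells. Their median log2 ratio was -0.08, with Dcn at 79.6%, Pdgfra at 84.1% and Postn at 86.0% of wild type. All 6 endothelial markers were below 1 FPKM on average, and of 7 epithelial markers 1 (Krt18) was measured, with 3 listed at 0 in a library.

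The collagenase gene Mmp13 and the stromelysin genes Mmp3 and Mmp10 had the lowest knockout values relative to wild type among the 10. Mmp13, the main interstitial collagenase of the mouse, was at 44.2 FPKM in wild-type and 18.1 FPKM in knockout cells. The knockout value was 41.0% of the wild-type value, a log2 ratio of -1.24 and the 30th lowest of the 11070 measured genes. Mmp3, a stromelysin that cuts proteoglycans and activates other proenzymes, was at 107 FPKM in wild-type and 51.7 FPKM in knockout cells, 48.3% of wild type. Its log2 ratio of -1.04 was the 40th lowest. Mmp10, the related second stromelysin, was at 4.01 FPKM in wild-type and 1.49 FPKM in knockout cells, 37.2% of wild type and a log2 ratio of -1.01. Adding 1 FPKM understates the difference of so low a gene, and with 0.1 FPKM added its log2 ratio was -1.37.

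These 3 of the 10 members were at least 2-fold lower in the knockout library on this scale, as were 0.379% of all measured genes. No member was at least 2-fold higher, against 0.361% of all measured genes. The count stands near its limit for Mmp3 and Mmp10, since 1 member (Mmp13) was left when the ratios were centred on the median gene and none when both columns were brought to a common FPKM sum, where 0.235% of all genes were at least 2-fold lower. With 0.1 FPKM added the 3 members stood beside 0.650% of all measured genes, and among genes averaging at least 5 FPKM 2 of 8 members (Mmp3 and Mmp13) stood beside 0.515%. The common FPKM sum shifted ratios by 0.47, and a sum without 495 rows shifted them by 0.02. Those rows were small RNA genes, ribosomal RNA and rows more than 100-fold apart. A ratio between genes of the same library does not depend on the scaling. The level of Mmp3 was 0.951 times that of Mmp14 in the wild-type library and 0.450 times in the knockout library, and that of Mmp13 was 0.392 times Mmp14 in the wild-type library and 0.158 times in the knockout library. The longest annotated transcripts of Mmp3 and Mmp10 share stretches of 50 bases, which make up 7.99% of the positions of Mmp3 and 8.37% of those of Mmp10, so part of their fragments could have been divided between them. Mmp13 shares no such stretch with another family gene. In bulk RNA, fewer cells making a transcript and less of the transcript per cell cannot be told apart.

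**Figure D1:**
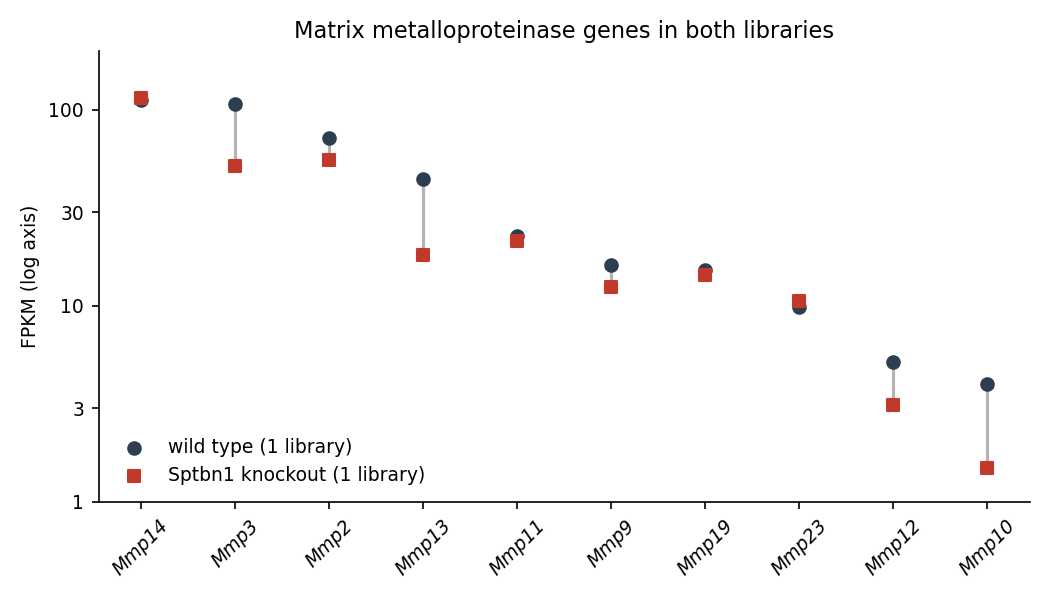
FPKM of the 10 matrix metalloproteinase genes (log axis) in the wild-type library (circles) and the Sptbn1 knockout library (squares), ordered by the wild-type level. The grey bars join the 2 values of a gene and are longest for Mmp10, Mmp13 and Mmp3, while the symbols of Mmp14, Mmp11, Mmp19 and Mmp23 lie close together.

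Mmp12, the macrophage elastase, came next. It was at 5.18 FPKM in wild-type and 3.13 FPKM in knockout cells, 60.4% of wild type, a log2 ratio of -0.58 and the 137th lowest of the measured genes. The gelatinase genes, whose enzymes cut denatured collagen and type IV collagen, differed by less. Mmp2, the gelatinase that fibroblasts make constitutively, was at 72.2 FPKM in wild-type and 55.3 FPKM in knockout cells, 76.7% of wild type. Mmp9, the inducible gelatinase that is also made by macrophages and neutrophils, was at 16.1 FPKM in wild-type and 12.5 FPKM in knockout cells, 77.8% of wild type. Their log2 ratios of -0.38 for Mmp2 and -0.34 for Mmp9 were the 467th and the 638th lowest, and on a common FPKM sum both turned positive, to 0.082 and 0.097, while the median of all genes moved to 0.34.

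Most macrophage markers also had lower FPKM in the knockout library as deposited. The direction of the list's median turns on a common FPKM sum, while centred on the median gene the list's median was -0.29. All 17 rows found for the 18 listed markers were measured and none was at 0, and the lowest value among those other than lysozyme was 1.37 FPKM. Their FPKM summed to 1339 in wild-type and 842 in knockout cells, 62.9% of wild type, and without the joined lysozyme row (Lyz1 and Lyz2) to 359 in wild-type and 269 in knockout cells, 74.9% of wild type. Of the 17 rows, 14 had a log2 ratio below 0, as did 63.1% of all measured genes, and their median was -0.34. On a common FPKM sum 8 of the 17 were below 0, as were 5.26% of all genes, and their median was 0.10 beside 0.34. C1qb, a complement subunit made by macrophages and the lowest ratio of the list, was at 25.4 FPKM in wild-type and 13.7 FPKM in knockout cells. Fcer1g, a signalling chain of Fc receptors, was at 77.6 FPKM in wild-type and 52.4 FPKM in knockout cells. The 3 rows above 0 as deposited were Aif1, Cx3cr1 and Ptprc, at 120%, 106% and 101% of wild type. The part of macrophages in the values of Mmp12, Mmp9 and the other members was not tested.

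The remaining 4 members had near-equal values in both libraries. Mmp14, the membrane-anchored collagenase that activates the Mmp2 proenzyme together with TIMP2, had the highest level of the 10 in either library, at 113 FPKM in wild-type and 115 FPKM in knockout cells. Mmp11, a stromelysin relative that weakly cuts classical matrix proteins, was at 22.8 FPKM in wild-type and 21.4 FPKM in knockout cells. Mmp19, which cuts proteins of the basement membrane, was at 15.1 FPKM in wild-type and 14.4 FPKM in knockout cells. Mmp23, an unusual member without the hemopexin domain, was at 9.90 FPKM in wild-type and 10.6 FPKM in knockout cells, the highest knockout share of the 10 at 107%. Their log2 ratios ran from -0.09 for Mmp11 to 0.09 for Mmp23, with Mmp19 at -0.07 and Mmp14 at 0.03, and on a common FPKM sum all 4 were above 0.

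In all, 8 of the 10 members had a log2 ratio below 0, where 63.1% of all measured genes did, and on a common FPKM sum 4 of 10 did, where 5.26% of all genes did. The members' median was -0.36 beside -0.05 for all measured genes. On a common FPKM sum it was 0.090 beside 0.34. Within 1.5-fold on this scale lay 7 of the 10 members and 97.7% of all measured genes. Mmp12 is among the 7 only through the 1 FPKM added. Its FPKM differed 1.66-fold, and with 0.1 FPKM added its log2 ratio was -0.71.

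**Figure D2:**
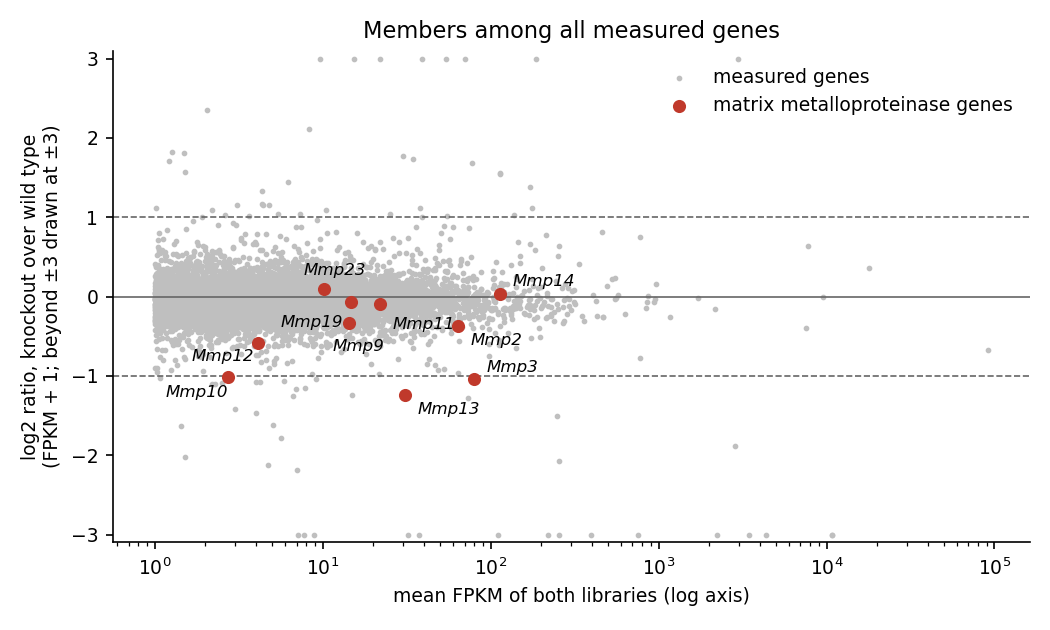
Log2 ratio of knockout over wild type (1 FPKM added) against the mean FPKM of both libraries (log axis) for all 11070 measured genes (grey) and the 10 matrix metalloproteinase genes (red), with broken lines at 2-fold. Mmp13, Mmp3 and Mmp10 lie on or below the lower broken line and Mmp14, Mmp11, Mmp19 and Mmp23 within the band of most genes. On a common FPKM sum the values of Mmp2, Mmp9, Mmp11 and Mmp19 are above 0.

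The make-up of the family differed between the libraries. The 10 genes summed to 409 FPKM in wild-type and 304 FPKM in knockout cells. Mmp3, Mmp10 and Mmp13 together made 23.5% of that sum in knockout and 38.0% in wild-type cells. Mmp14 alone made 37.8% in knockout and 27.5% in wild-type cells. In the wild-type library the order by level was Mmp14, Mmp3, Mmp2, Mmp13, Mmp11, Mmp9, Mmp19, Mmp23, Mmp12 and Mmp10. In the knockout library Mmp2 stood above Mmp3, Mmp11 above Mmp13 and Mmp19 above Mmp9, and the other places were as in the wild-type library. Without replicates no pair of neighbours in either order can be said to differ beyond its spread.

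The 10 members can also be split by how the proenzymes are activated, a split made after the values were seen. The 13 family genes outside the members were not split in this way. The 3 members with a furin site (Mmp11, Mmp14 and Mmp23) summed to 145 FPKM in wild-type and 147 FPKM in knockout cells, with single values from 93.8% to 107% of wild type. The 7 others, whose proenzymes lack it, summed to 264 FPKM in wild-type and 157 FPKM in knockout cells, with single values from 37.2% to 94.9% of wild type. Mmp19 was the highest of these 7, and its share of the wild-type value exceeded that of Mmp11, so the 2 ranges overlap.

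The members with the lowest knockout shares are neighbours on the chromosome. In the gene order of RefSeq on GRCm38.p6, 10 genes of the family follow one another on chromosome 9 with no other protein-coding gene between them, in the order Mmp13, Mmp12, Mmp1b, Mmp3, Mmp1a, Mmp10, Mmp8, Mmp27, Mmp20 and Mmp7. The other 13 family genes in the deposited table lie on other chromosomes. All 4 members in the run were lower in the knockout library, at 37.2% to 60.4% of wild type. Of all measured genes, 63.1% had a log2 ratio below 0. The 4 members in the run summed to 161 FPKM in wild-type and 74.5 FPKM in knockout cells. The 6 members elsewhere were at 76.7% to 107% of wild type, so the 2 sets of members do not overlap. By log2 ratio Mmp12, the highest of the run, ranked within the lowest 1.24% of all measured genes. Mmp2, the lowest elsewhere, ranked within the lowest 4.22%. The 6 members elsewhere summed to 249 FPKM in wild-type and 229 FPKM in knockout cells. On a common FPKM sum the 4 in the run were still below 0, from -0.80 for Mmp13 to -0.22 for Mmp12, and the 6 elsewhere above 0. On that sum 5.26% of all measured genes were below 0, so a value above 0 is what most genes had. All 4 members in the run are among those without a furin site, so this grouping overlaps the split by activation. The grouping by position was noticed in the values and not tested.

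The remaining genes of the run were low in both libraries. Mmp1b, a rodent relative of the interstitial collagenase, was at 0.372 FPKM in wild-type and 0.150 FPKM in knockout cells, and the neutrophil collagenase Mmp8 at 0.566 FPKM in wild-type and 0.336 FPKM in knockout cells. Mmp27 was at 0.846 FPKM in wild-type and 0.552 FPKM in knockout cells. Mmp1a was at 0.0917 FPKM in wild-type cells and listed at 0 in knockout cells, and the matrilysin Mmp7 and the enamel protease Mmp20 at 0 in both. So each of the 7 run genes above 0 in both libraries was lower in the knockout library, from 37.2% to 65.3% of wild type, and on a common FPKM sum from 51.3% to 90.2%. Of all measured genes, 63.1% had a log2 ratio below 0 as deposited, and 5.26% on a common FPKM sum. Without the filter on low values, 59.9% of 18094 genes had a log2 ratio below 0 as deposited. Mmp1b, Mmp8 and Mmp27 were under 1 FPKM in both libraries, so their shares are near the floor and of unknown counting error. Mmp1a and Mmp1b share stretches of 50 bases (8.26% of the positions of Mmp1a and 11.6% of those of Mmp1b), which leaves their values uncertain. Of the 11 family genes elsewhere that were above 0 in both libraries, 8 were below 100% of wild type, and their median was 93.8% beside 48.3% for the 7 of the run. Both medians take in genes under 1 FPKM. Among measured genes the median log2 ratio was -1.02 for the 4 of the run and -0.08 for the 8 elsewhere. Mmp16 and Mmp17, membrane-anchored members of the family and the 2 others measured, were at 2.34 FPKM in wild-type and 2.31 FPKM in knockout cells for Mmp16 and at 6.06 FPKM in wild-type and 5.31 FPKM in knockout cells for Mmp17. The lowest of these 11 was Mmp21, at 0.0604 FPKM in wild-type and 0.0324 FPKM in knockout cells. The other 2 genes elsewhere, Mmp24 and Mmp25, were at 0.0101 and 0.0213 FPKM in wild-type cells and listed at 0 in knockout cells. The protein-coding genes that flank the run were nearer to equal: Dcun1d5 on one side was at 87.9% of wild type and Tmem123 on the other at 89.7%.

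**Figure D3:**
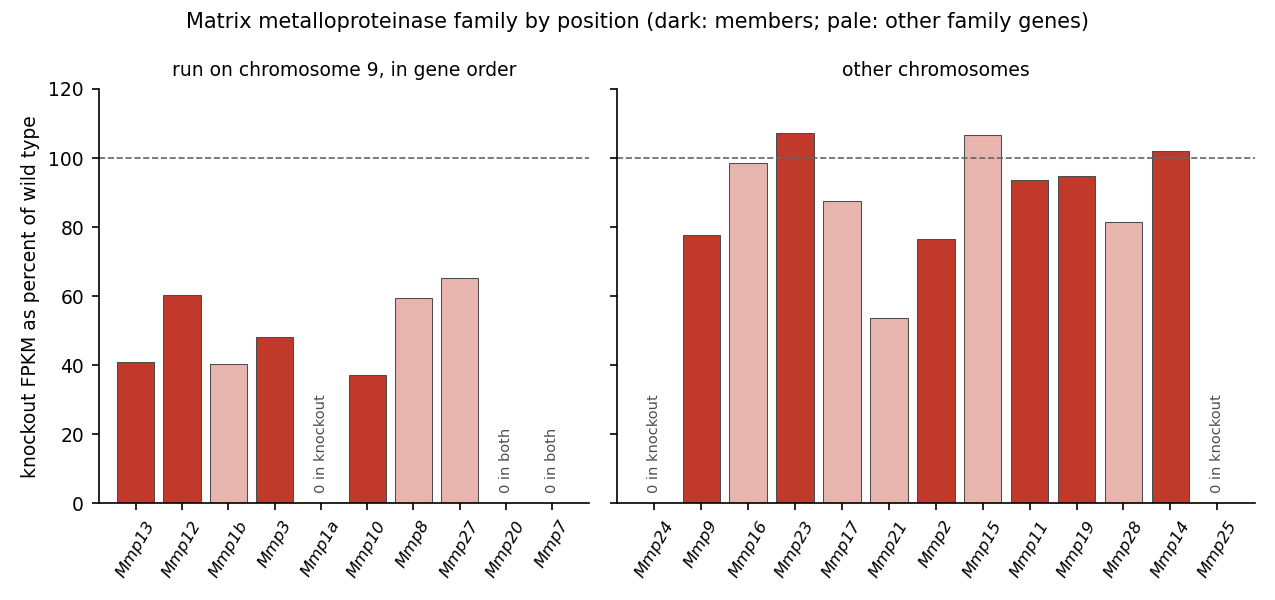
Knockout FPKM as percent of wild-type FPKM for the 10 family genes in a row on chromosome 9, in gene order (left), and for the 13 family genes on other chromosomes (right). Dark bars are the 10 members and pale bars other family genes, of which those besides Mmp16 and Mmp17 have a mean under 1 FPKM. Among genes above 0 in both libraries, the bars of the run lie between 37.2% and 65.3%, and those elsewhere between 53.7% (Mmp21) and 107% (Mmp23).

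The promoters of the run were searched for short sets of letters, which some of its genes hold and others lack. The 250 bases before the annotated start are printed for the 4 members of the run, and for Mmp14 as the most abundant member outside it, from RefSeq on GRCm38.p6, which is a later build than that of the alignment. Capitals mark the AP-1 letters TGAGTCA (or their reverse complement TGACTCA) and the TATA letters TATAAA (or TTTATA), searched on both strands. No AP-1 match overlaps a TATA match in these windows. For Mmp12, which has 2 annotated starts, the window of the start that holds the AP-1 letters is shown, and the other start's window holds neither.
Mmp13, chr9:7272264-7272513, plus strand: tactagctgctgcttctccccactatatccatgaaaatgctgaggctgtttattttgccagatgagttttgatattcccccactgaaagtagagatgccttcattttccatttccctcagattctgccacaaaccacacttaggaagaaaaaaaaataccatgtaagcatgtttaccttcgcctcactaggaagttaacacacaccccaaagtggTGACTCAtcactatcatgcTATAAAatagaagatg
Mmp3, chr9:7445572-7445821, plus strand: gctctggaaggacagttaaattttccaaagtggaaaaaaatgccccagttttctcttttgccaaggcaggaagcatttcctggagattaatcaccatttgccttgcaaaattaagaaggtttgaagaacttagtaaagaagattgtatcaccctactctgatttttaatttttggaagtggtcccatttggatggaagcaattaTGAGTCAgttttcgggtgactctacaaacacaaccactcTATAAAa
Mmp10, chr9:7502092-7502341, plus strand: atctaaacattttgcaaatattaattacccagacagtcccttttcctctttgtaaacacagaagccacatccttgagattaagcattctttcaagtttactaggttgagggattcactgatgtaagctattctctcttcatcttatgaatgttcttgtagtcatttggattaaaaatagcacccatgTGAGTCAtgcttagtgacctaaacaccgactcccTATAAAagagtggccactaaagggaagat
Mmp12, chr9:7347124-7347373, plus strand: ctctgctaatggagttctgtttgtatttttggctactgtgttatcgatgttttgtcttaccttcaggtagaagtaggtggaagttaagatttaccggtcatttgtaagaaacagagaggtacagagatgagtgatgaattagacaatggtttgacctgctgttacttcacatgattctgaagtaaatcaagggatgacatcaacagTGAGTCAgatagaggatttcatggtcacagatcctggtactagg
Mmp14, chr14:54431348-54431597, plus strand: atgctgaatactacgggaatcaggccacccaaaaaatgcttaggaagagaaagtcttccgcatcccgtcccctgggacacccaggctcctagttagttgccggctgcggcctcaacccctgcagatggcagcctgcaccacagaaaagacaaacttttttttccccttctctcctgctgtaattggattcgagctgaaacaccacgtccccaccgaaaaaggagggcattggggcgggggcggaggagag
The AP-1 letters end 29 bases before the start in Mmp13, 40 in Mmp3, 57 in Mmp10 and 38 in Mmp12. The Mmp14 window holds neither set of letters.

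Windows were matched for 18 of the 23 family genes (all but Mmp2, Mmp9, Mmp16, Mmp17 and Mmp19), 7 of them members. The AP-1 letters were found in all 4 members of the run and in none of the 3 members elsewhere with a window (Mmp11, Mmp14 and Mmp23). Over the family they were found in 7 of the 10 genes of the run and in none of 8 elsewhere. Of 27025 genes with a window of this length in the table, 5.16% hold them. The run genes without the AP-1 letters are Mmp8, Mmp27 and Mmp20. Mmp8 and Mmp27, both under 1 FPKM, were also lower, at 59.4% and 65.3% of wild type. Mmp20 was at 0 in both libraries. The TATA letters were found in 7 of the 10 run genes and in 1 of 8 elsewhere, beside 14.3% of all genes, and 6 run genes held both. The letters AGGAAG (or CTTCCT), the core bound by ETS factors, were found in 6 of the 10 run genes and in 3 of 8 elsewhere, beside 32.3% of all genes. A match of letters is a description of the window, and says nothing on whether a factor was bound. The 3 run genes outside the members that hold the AP-1 letters, Mmp1b, Mmp1a and Mmp7, were all under 1 FPKM in both libraries. They are shown as 27-base stretches with the AP-1 letters in capitals.
Mmp1b, chr9:7388103-7388129, minus strand: ttacaaagccTGAGTCAtatagcctct
Mmp1a, chr9:7464058-7464084, plus strand: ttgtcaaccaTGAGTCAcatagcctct
Mmp7, chr9:7692017-7692043, plus strand: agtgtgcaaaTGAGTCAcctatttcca

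Of 21 listed transcription factors known to act on such promoters 19 were measured and none differed 2-fold in either direction. Their median log2 ratio was -0.06 beside -0.05 for all measured genes, and 14 of the 19 were below 0, where 63.1% of all measured genes were. None of the 19 was below 0 on a common FPKM sum, where their median was 0.35 beside 0.34. Among the AP-1 subunits, Jun was at 11.1 FPKM in wild-type and 14.0 FPKM in knockout cells (log2 ratio 0.31, above the 0.28 that bounds the highest 5% of measured genes) and Fosl2, the most abundant FOS relative listed, at 32.9 FPKM in wild-type and 30.01 FPKM in knockout cells (-0.13). Ets2 was at 11.0 FPKM in wild-type and 9.32 FPKM in knockout cells (-0.21). Stat3, which carries signals of the interleukin-6 family, was at 32.3 FPKM in wild-type and 31.7 FPKM in knockout cells (-0.03).

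Among the cytokines, receptors and other inducers of metalloproteinases, 21 of 22 were measured, none differed 2-fold, and 18 were below 0 with a median of -0.08, beside 63.1% and -0.05 for all measured genes. A total of 2 of the 21 were below 0 on a common FPKM sum, with a median of 0.36. Il1rl1, the interleukin-33 receptor, was at 84.8 FPKM in wild-type and 43.0 FPKM in knockout cells, 50.7% of wild type and a log2 ratio of -0.96. Il1rap, the accessory chain that the interleukin-1 and interleukin-33 receptors share, was at 7.81 FPKM in wild-type and 5.36 FPKM in knockout cells (-0.47). The most abundant genes of this list lay close to the median gene, with Bsg, an inducer of metalloproteinases on the cell surface, at 152 FPKM in wild-type and 146 FPKM in knockout cells, and the signalling receptor Il6st at 70.1 FPKM in wild-type and 66.2 FPKM in knockout cells.

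The inhibitors, as deposited, lay on both sides of 0, and on a common FPKM sum all 4 measured were above it. Of 7 listed genes 4 were measured, 2 on each side of 0, with a median of -0.09 and none at 2-fold. Timp1, the inducible inhibitor, was at 307 FPKM in wild-type and 264 FPKM in knockout cells (-0.22). Timp2 was at 91.0 FPKM in wild-type and 92.0 FPKM in knockout cells (0.02), and the matrix-bound Timp3 at 176 FPKM in wild-type and 228 FPKM in knockout cells (0.37). Reck, a membrane-anchored inhibitor, was at 7.90 FPKM in wild-type and 6.74 FPKM in knockout cells (-0.20). The 4 Timp genes summed to 575 FPKM in wild-type and 584 FPKM in knockout cells. The summed level of the 10 members was thus 0.520 times the Timp sum in knockout and 0.712 times in wild-type cells, a measure that does not depend on the scaling.

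Genes that activate proenzymes, with their own inhibitors, had 8 of 13 measured, 7 below 0 (63.1% of all measured genes), none at 2-fold and a median of -0.16. Plau, the urokinase that turns plasminogen into plasmin, was at 8.58 FPKM in wild-type and 6.89 FPKM in knockout cells (-0.28). Serpine2, a secreted inhibitor of serine proteases such as thrombin and urokinase, was at 85.9 FPKM in wild-type and 67.4 FPKM in knockout cells. The related ADAM and ADAMTS proteases had 18 of 19 measured, 15 below 0 (again beside 63.1%), none at 2-fold and a median of -0.17, beside -0.36 for the metalloproteinase members. On a common FPKM sum none of the 8 activators and 3 of the 18 proteases were below 0, with medians of 0.27 for the activators, 0.24 for these proteases and 0.090 for the members. Adamts1, which cuts proteoglycans, was at 25.4 FPKM in wild-type and 18.4 FPKM in knockout cells (-0.45), and Adam33 at 3.33 FPKM in wild-type and 1.96 FPKM in knockout cells (-0.55). Adam12 and Adam19, the most abundant of them, were at -0.08 and -0.05.

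The matrix proteins on which these enzymes act had a median ratio close to that of all genes. Of 22 listed substrates 21 were measured, with a median of -0.03. Of these, 13 were below 0, 1 was at least 2-fold lower and 1 at least 2-fold higher, beside 63.1%, 0.379% and 0.361% of all measured genes. With both columns at a common FPKM sum 2 of the 21 were below 0, with a median of 0.44. Sparc, a collagen-binding glycoprotein, was at 1720 FPKM in wild-type and 1706 FPKM in knockout cells. Col1a1, the main chain of the collagen that Mmp13 and Mmp14 cut, was at 98.2% of wild type, and the level of Mmp13 was 0.0193 times that of Col1a1 in knockout and 0.0462 times in wild-type cells. Spp1, the phosphoprotein osteopontin, which metalloproteinases cleave, was at 35.0% of wild type, a log2 ratio of -1.51. Col2a1, the cartilage collagen and a substrate of Mmp13, was at 0.265 FPKM in wild-type and 2.76 FPKM in knockout cells (1.57). Both are also on the list of bone and cartilage markers, a lineage that makes Mmp13, of which 4 of 13 found genes were measured, with a median log2 ratio of 0.13. Its regulator Runx2 was at 10.4 FPKM in wild-type and 10.3 FPKM in knockout cells. The part of such cells in the Mmp13 value was not tested.

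**Figure D4:**
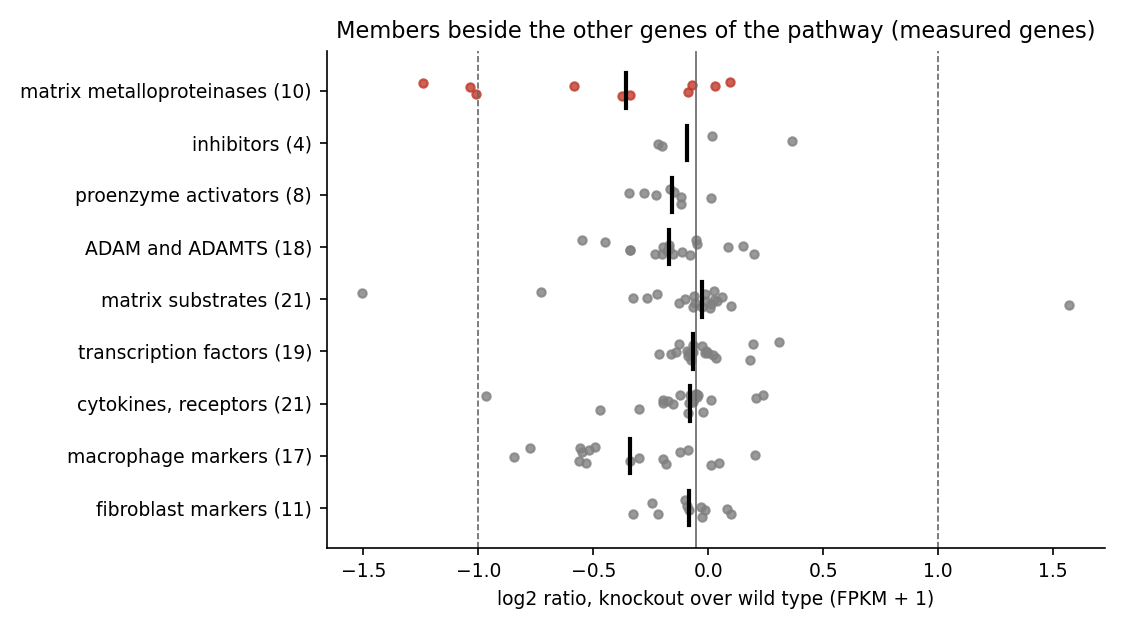
Log2 ratios of knockout over wild type (1 FPKM added) of the measured members (red) and of the measured genes of 8 lists (grey), with black bars at the medians, a thin line at the median of all measured genes and broken lines at 2-fold. The median of the members (-0.36) and that of the macrophage markers (-0.34) lie farthest from the line. On a common FPKM sum every list's median is above 0, with the members at 0.090, the macrophage markers at 0.10 and all genes at 0.34.

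The genes whose ratio was most like that of a member were named by the nearness of the log2 ratio, over 2 libraries. Candidates were genes averaging at least 5 FPKM, with members, small RNA genes and predicted names left out. For Mmp13 the nearest were Ptgds, a prostaglandin synthase gene, and Penk, the proenkephalin gene, with log2 ratios of -1.16 each. For Mmp3 they were Bcl2a1b, an antiapoptotic gene with near-identical copies, and Gsta4, a glutathione transferase gene, at -1.04 and -1.06. For Mmp10 they were Cxcl5, a neutrophil-attracting chemokine gene, at -0.97 and again Bcl2a1b.

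The authors' deposited table also holds p-values from their own comparison of the 2 libraries, which carry no spread between cultures. Of the 10 members 7 had a p-value under 0.05 in the authors' deposited table, as did 5.60% of the measured genes above 0 in both libraries. The smallest in the authors' deposited table were 1.42109e-14 for Mmp13 and 3.49567e-11 for Mmp3, followed by 0.000151 for Mmp10 and 0.00330 for Mmp12. In the authors' deposited table Mmp2 had 0.0146, Mmp11 0.0201 and Mmp9 0.0435, while Mmp19, Mmp23 and Mmp14 had 0.716, 0.713 and 0.878. Mmp11 and Mmp19 stood at 93.8% and 94.9% of wild type and at similar levels, so their p-values in the authors' deposited table differ more than their values do.

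**Figure D5:**
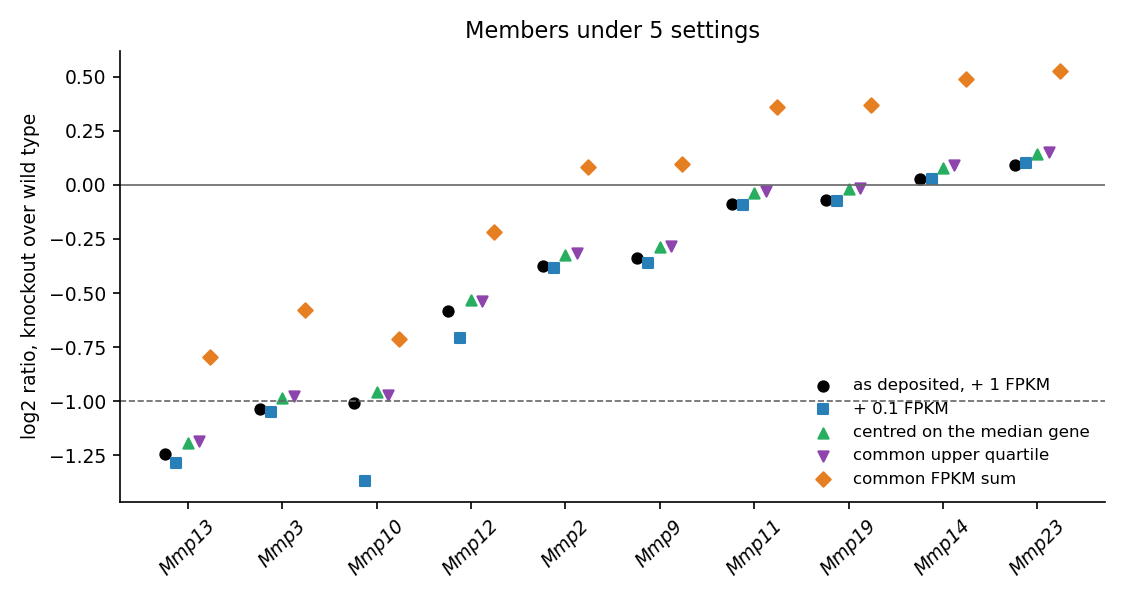
Log2 ratio of knockout over wild type of each member as deposited with 1 FPKM added (circles), with 0.1 FPKM added (squares), centred on the median gene (triangles up), on a common upper quartile (triangles down) and on a common FPKM sum (diamonds). Mmp13, Mmp3, Mmp10 and Mmp12 stay below 0 in all 5, while Mmp2, Mmp9, Mmp11 and Mmp19 are above 0 on the common FPKM sum.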

How the data were processed

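Per the series' design text and the submitters' processing notes, reads were aligned with TopHat2 version 2.0.10 to NCBI mouse build 37.2, quantified with Cufflinks and compared with Cuffdiff2. Further settings were not found in the labels. The authors deposited 1 FPKM value for each gene and library and 1 p-value for each gene, per the file headers. The wild-type column, whose header also carries -/-, was matched to its library by name, and each direction rests on that match. Cufflinks divides fragments shared between like genes, so its FPKM are estimates, and a 0 may be a failed estimate. Among 3081 rows with a mean under 0.3 FPKM the commonest ratio puts the FPKM of 1 fragment 1.61 times higher in knockout than in wild-type cells, so the knockout library was the shallower.

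Log2 ratios of knockout over wild type were computed with 1 FPKM added (Python 3.11.15, pandas 2.3.3), for genes averaging at least 1 FPKM, with 1 row per name. The calls were tested on simulated data with changes larger than those of the members, which says nothing on calls near the 2-fold limit. Current symbols were matched through RefSeq names, and Sptbn1 through its older symbol Spnb2. The members, the 12 gene lists and the alternatives were chosen with earlier results of these data known. Named were all members, Sptbn1, measured family genes and inhibitors, the 2 most abundant and the 2 most different genes of each other list, the genes nearest in ratio to a 2-fold member and the neighbours of the run. Family genes under 1 FPKM, Cxcl10, Fap, Aif1, Cx3cr1 and Ptprc were named after their values were seen. One gene that this rule names is not reported here.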

Additional observations from a re-analysis of the deposited data

How the results depend on the processing

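Alternatives were another amount added (0.1 FPKM), 4 other scalings, 2 other filters on low values and the sum of repeated rows. The count of members at least 2-fold lower, 3 as reported, was 1 when centred on the median gene, 1 on a common upper quartile and 0 on a common FPKM sum; in the other settings it was 2 or 3. The common FPKM sum shifts ratios by 0.47. Without 495 rows (small RNA genes, ribosomal RNA and rows more than 100-fold apart) the shift was 0.02. On the common FPKM sum 4 members were below 0, the median was 0.090, and Mmp2 (0.082), Mmp9 (0.097), Mmp11 (0.36) and Mmp19 (0.37) turned positive. The other 74 of 78 member values kept their direction and moved by less than 1.5-fold. With a mean of 5 FPKM or more, Mmp10 and Mmp12 dropped out. No library could be left out. No paired analysis was possible because each genotype has 1 library. The fragment totals are unknown, so the counting error of Mmp10 and of family genes under 1 FPKM is unknown too.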

Other observations

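The AP-1 letters described for the collagenase and stromelysin promoters were also looked up over all genes. Of 8442 measured genes with a window of 250 bases, 339 (4.02%) held them, with a median log2 ratio of -0.07 beside -0.05 for the 8103 without. Of the 16 genes of this set that were at least 2-fold lower in the knockout library, 5 held them: Mmp13, Mmp3, Mmp10, the chemokine gene Cxcl10 and the prostaglandin synthase gene Ptgds, the latter pair being 2 of the 13 outside the family. Of the 12 that were at least 2-fold higher, 1 held them. Over all 11070 measured genes 42 were at least 2-fold lower and 40 at least 2-fold higher. Most of these had no matched window and were not searched. This look-up was made after the members' promoters were seen, and it was not tested.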
